A study of Mus musculus with 9 samples.

Results

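A set of 10 genes of semaphorin signalling was examined in mouse macrophages: the ligands Sema4a, Sema4b, Sema4c, Sema4d and Sema7a, the plexin receptors Plxnb1, Plxnb2, Plxnc1 and Plxnd1, and the coreceptor Nrp1. They were chosen by symbol from 24187 genes in the 2 deposited tables, with earlier results of these data known, because Sema4c was among the genes of greatest decrease when the inhibitor NCT503 was added to lipopolysaccharide (LPS). Values that compare LPS with NCT503 against LPS, or that otherwise rest on the NCT503 libraries, are therefore given for these 10 genes as descriptions without a test. All 10 genes were found in both tables, and all 10 passed the minimum of 1 mean normalized read.

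Bone marrow of C57BL/6 mice, given in the labels as postnatal week 8, was grown into macrophages with the growth factor M-CSF, so every group shares that exposure. Control macrophages were kept in medium alone for 6 h, LPS macrophages received 500 ng/ml LPS for 6 h, and the group called LPS with NCT503 received 500 ng/ml LPS and 50 µM NCT503 for 6 h. NCT503 is a small molecule inhibitor of PHGDH, which opens the route of serine synthesis from glycolysis; no group received NCT503 without LPS, so its action on resting macrophages cannot be told apart from its action on the LPS response. Each group had 3 RNA-seq libraries, and the labels do not say whether these came from separate mice or cultures, so p-values measure only the spread between these libraries, which may be technical.

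Semaphorins are secreted or membrane-bound guidance proteins that share a sema domain, and plexins are their main receptors. A bound plexin acts through its cytoplasmic domain on small GTPases, and thereby on integrin adhesion and the actin cytoskeleton. Class 4 semaphorins sit in the membrane and can be shed from it, and in the immune system they act between macrophages, dendritic cells and lymphocytes; neuropilins serve as coreceptors of the secreted class 3 semaphorins and of vascular growth factors.

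Here 2 promoter windows are shown, since these genes, Sema4c and Plxnc1, had opposite patterns over the 3 groups, described further on, and each holds a match to a motif that was searched. Both windows are the 250 bases before a RefSeq start on GRCm38.p6, written 5′ to 3′ on the strand of the gene, and both lie upstream of the annotated gene. Capitals in the Sema4c window (chr1:36558382-36558631, minus strand) mark a match to the NF-κB consensus that begins 186 bases before the start and reads as a match on both strands. Capitals in the Plxnc1 window (chr10:94944846-94945095, minus strand) mark a match to an interferon response element, GAAANNGAA, that begins 118 bases before the start.
Sema4c: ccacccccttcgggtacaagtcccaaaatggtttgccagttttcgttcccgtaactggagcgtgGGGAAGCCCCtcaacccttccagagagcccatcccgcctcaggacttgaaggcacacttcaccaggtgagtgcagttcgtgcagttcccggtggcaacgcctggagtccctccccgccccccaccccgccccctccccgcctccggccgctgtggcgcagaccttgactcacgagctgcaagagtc
Plxnc1: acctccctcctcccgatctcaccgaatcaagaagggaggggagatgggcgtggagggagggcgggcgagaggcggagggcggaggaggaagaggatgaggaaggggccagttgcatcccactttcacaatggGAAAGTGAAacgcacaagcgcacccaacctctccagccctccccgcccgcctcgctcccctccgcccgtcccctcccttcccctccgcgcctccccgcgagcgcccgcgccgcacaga

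RefSeq gives 18 such windows for the 10 genes. The NF-κB consensus was matched on either strand in 2 of the 18, those of Sema4c above and an internal start of Sema4a, against 7.25% of all 32851 windows in the table. The interferon response element GAAANNGAA was matched in 2 of 18 windows, those of Plxnc1 and Plxnd1, against 7.13% of all windows. The amino acid response element TGATGNAA was matched in 0 of 18, against 3.45% of all windows. These matches describe letters in the windows and were not tested as binding sites.

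Over the 21434 genes in both tables the libraries held 20295862 to 23599685 reads. Levels below are normalized reads, where the reads of a library are divided by a size factor common to all 9 libraries; log2 fold changes come from the 2 groups compared, with the authors' size factors. Over all genes, 8355 of 19975 were called with LPS, 4089 higher and 4266 lower, but 2092 higher and 8536 lower when libraries were scaled by their totals (CPM scaling, CPM being reads scaled to the library total), which moved the median of all genes by −0.69 on the log2 scale. With NCT503, 3351 of 19795 were called higher and 3098 lower, or 4405 and 2137 under CPM scaling, a shift of 0.24; quantile normalization moved that median by −0.16. Summed macrophage markers (9 of 9 genes measured, none at 0) spanned 18560–19940 CPM in control libraries, 16480–17540 CPM after LPS and 9149–12000 CPM once NCT503 was present. Markers of T and natural killer cells, 9 of 9 measured, summed to 219.8–438.6, 72.78–96.08 and 143.0–226.6 CPM in the same order, mostly Cd4; Cd3e reached at most 1.65 CPM. B cell markers (3 of 5 in both tables) were at most 6.03 CPM in any library. Neutrophil markers (6 of 7 in both tables) summed to 239.3–454.8, 98.14–213.0 and 10.79–22.39 CPM, and markers of mast cells and eosinophils to 45.29–55.0, 36.9–49.3 and 3.319–4.498 CPM. Dendritic cell markers stayed between 35.93 and 56.25 CPM except in replicate 2 of LPS with NCT503, which stood apart at 431.7 CPM through Itgax. In bulk RNA, fewer cells of a type and less RNA per cell cannot be told apart.

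LPS changed 6 of the 10 genes. Sema4c, Sema7a, Sema4a and Sema4d rose, and Nrp1 and Plxnc1 fell; Sema4b, Plxnb1, Plxnb2 and Plxnd1 did not pass an adjusted p of 0.05 (limma over all 19975 genes tested). Among all genes tested, 41.8% were called, 20.5% higher and 21.4% lower. The median log2 fold change of the 10 genes was 0.21, against −0.05 over all genes tested. Under CPM scaling the split of the 10 genes was 4 higher and 5 lower, and under quantile normalization 3 higher and 4 lower. The LPS libraries belong both to this comparison and to the one by which Sema4c was chosen.

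**Figure D1:**
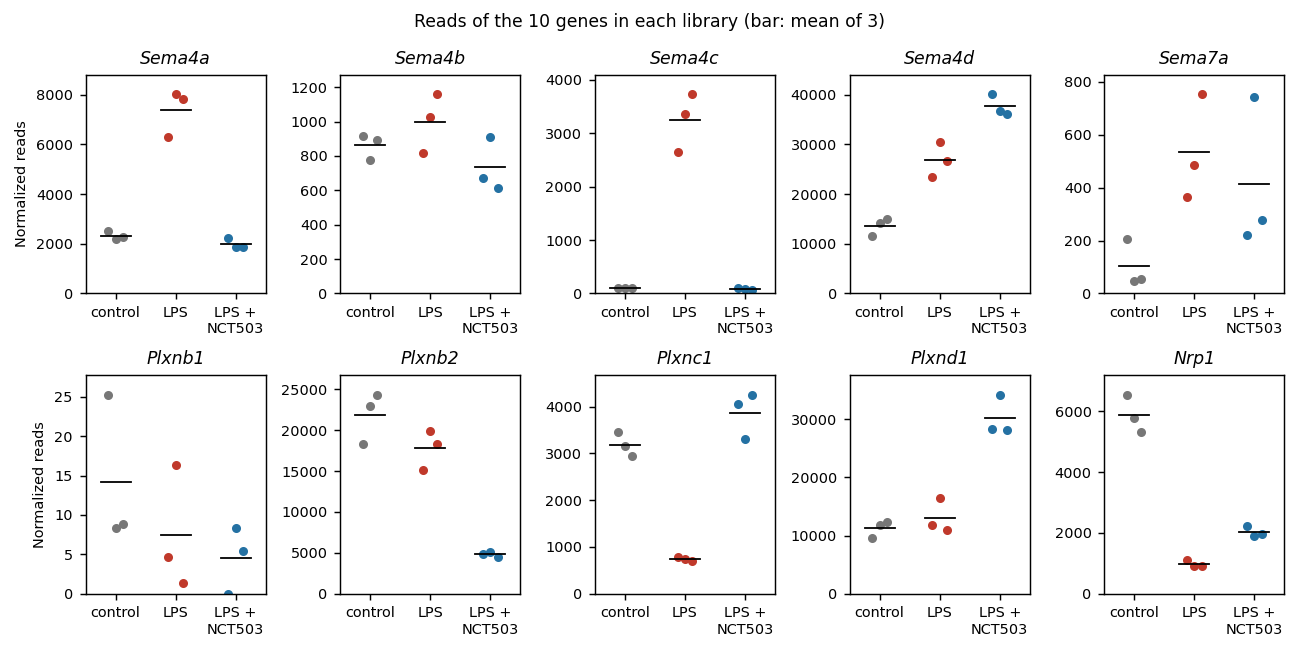
Normalized reads (y axis, linear, from 0) of the 10 genes in each library; 1 point is 1 library and the bar is the mean of 3. Sema4c and Sema4a are high in the 3 LPS libraries and low in the other 6, Plxnc1 is low in the 3 LPS libraries and high in the other 6, and Plxnb2 is low and Plxnd1 high in the 3 libraries with NCT503.

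Sema4c (chromosome 1, 36548639 to 36558349, minus strand, mm10) encodes a membrane-bound ligand of plexin B2. Its normalized reads were 101, 93.1 and 107 in the control libraries, 2658, 3364 and 3729 in the LPS libraries, and 96.8, 83.2 and 66.0 in those with LPS and NCT503. All 3 LPS libraries stood above the other 6, whereas control and LPS with NCT503 overlapped. It rose with LPS by 4.99 ± 0.17 on the log2 scale (SE, adjusted p = 2.01e-09, limma), a 32.3-fold difference of means and the 124th largest fitted rise of 19975 genes. The same LPS libraries entered the choice of Sema4c, so this p and this rank are not independent of that choice. The mean with NCT503 was 39.6-fold below that with LPS alone (log2 −5.29 ± 0.21, rank 3 among the fitted decreases of 19795 genes), and it differed from control by −0.30 ± 0.22 (−0.75 under CPM scaling). The noncoding gene D430040D24Rik, which lies on the opposite strand and shares 334 of the 4593 exon bases of Sema4c in GENCODE M21, followed the same order at 4.80 ± 0.80, 44.5 ± 8.94 and 3.84 ± 3.93 normalized reads (SD, n = 3). Since the strand setting of the counting is not given in the sources used here, reads of the shared bases cannot be assigned to either gene with certainty.

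Sema4a (chromosome 3, 88435959 to 88461182, minus strand), a membrane-bound semaphorin known for costimulating T cells, had the same order at higher levels. Control libraries held 2495, 2202 and 2288 normalized reads, LPS libraries 6301, 8015 and 7848, and libraries with NCT503 2247, 1851 and 1866. The LPS libraries did not overlap with either of the other groups, which overlapped with each other. LPS raised it by 1.66 ± 0.15 on the log2 scale (adjusted p = 4.49e-06, limma), and the rise was 0.96 under CPM scaling and 0.90 under quantile normalization. With NCT503 the mean was 3.72-fold lower than with LPS alone (log2 −1.89 ± 0.17), and against control the difference was −0.23 ± 0.15, or −0.68 under CPM scaling and −0.64 under quantile normalization.

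Sema4d (chromosome 13, 51701246 to 51793747, minus strand), also known as CD100, is a ligand of B-type plexins and of CD72 on immune cells. It showed a step upward in each group: 11650, 14122 and 14960 normalized reads in control, 23488, 30423 and 26604 with LPS, and 40084, 36844 and 36222 with LPS and NCT503. None of the 3 groups overlapped. The rise with LPS was 0.99 ± 0.17 on the log2 scale (adjusted p = 0.000548, limma), but it was 0.29 under CPM scaling (adjusted p = 0.0243) and −0.14 under quantile normalization (adjusted p = 0.238), and the cause was not tested. In reads before scaling, the control libraries held 17052 to 20172 and the LPS libraries 20288 to 22309, so before scaling the groups were separated by little. Against control, the libraries with NCT503 stood 1.48 ± 0.15 higher, and 0.73 to 1.55 higher over the 15 alternative settings. Sema4d is also a T cell gene, and the T and natural killer cell markers summed to less with LPS alone than in any control. That sum was mostly Cd4, and Cd3e reached at most 1.65 CPM in any library. The part of T cells in the Sema4d values was not tested.

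Sema7a (chromosome 9, 57940112 to 57962865, plus strand), a membrane-anchored semaphorin that binds plexin C1 and integrins, differed most of the 5 ligands among libraries of the same group. Control libraries held 206, 47.6 and 56.1 normalized reads, LPS libraries 365, 486 and 753, and libraries with NCT503 220, 743 and 277. Control 1 and replicate 2 of LPS with NCT503 stood apart from the others of their groups. LPS raised Sema7a by 2.63 ± 0.52 on the log2 scale (adjusted p = 0.00327, limma), by 3.28 without control 1, and in the fit with the replicate number as a block the adjusted p was 0.127. With NCT503 its level was −0.52 ± 0.40 against LPS, and it was −1.04 without replicate 2 and −0.17 without replicate 1 of LPS with NCT503, and −0.24 without LPS 3.

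Within each group, the libraries richer in Sema7a were also richer in stromal markers. The 8 fibroblast and stromal markers, all measured and none at 0, summed to 1701, 335.4 and 504.0 CPM in control, 670.0, 813.9 and 1302 in LPS, and 700.6, 1862 and 994.0 in LPS with NCT503, with Col1a1 the largest part. Within each group the libraries had the same order for Sema7a as for this sum. That order held also with the sum in normalized reads, on which scale control 1 (25426) lay below LPS 3 (35148). Between groups it did not hold. Control 1 had fewer normalized reads of Sema7a (206) than LPS 1 (365), although its marker sum was higher on both scales. The part of stromal cells in the Sema7a values was not tested.

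**Figure D2:**
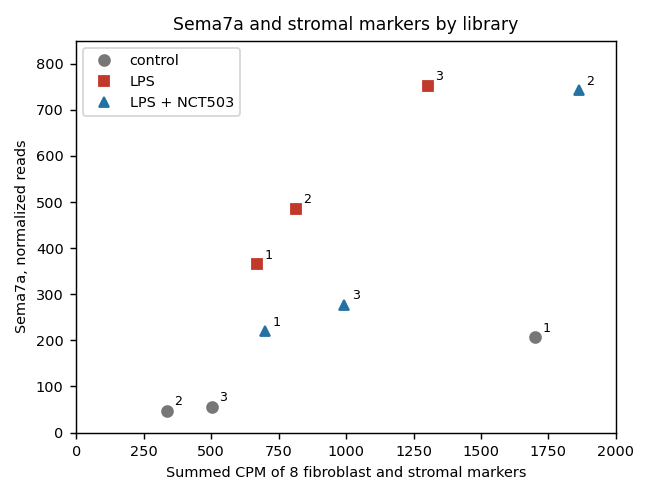
Normalized reads of Sema7a (y axis) against the summed CPM of 8 fibroblast and stromal markers (x axis) in each of the 9 libraries, with the replicate number beside each point. In each group the library with the highest marker sum (control 1, LPS 3, and replicate 2 of LPS with NCT503) also had the most Sema7a.

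Sema4b (chromosome 7, 80186841 to 80226527, plus strand), another membrane-bound class 4 semaphorin, varied least of the 5 ligands. Its normalized reads were 916, 776 and 895 in control, 814, 1024 and 1158 with LPS, and 674, 911 and 615 with LPS and NCT503. Every pair of groups overlapped. The difference with LPS was 0.21 ± 0.17 on the log2 scale (adjusted p = 0.349, limma), and it was −0.50 under CPM scaling, where it passed (adjusted p = 0.0232), and −0.09 under quantile normalization.

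Among the receptors, Plxnc1 (chromosome 10, 94790866 to 94944835, minus strand), which encodes the plexin C1 receptor of Sema7a, ran opposite to Sema4c and Sema4a. Control libraries held 3466, 3152 and 2937 normalized reads, LPS libraries 794, 746 and 708, and libraries with NCT503 4063, 3304 and 4256. All 3 LPS libraries lay below the other 6, while control and LPS with NCT503 overlapped. LPS lowered it by a log2 change of −2.08 ± 0.14 (adjusted p = 3.92e-07, limma), and −2.78 under CPM scaling. The mean with NCT503 was 5.17-fold that with LPS alone (log2 2.36 ± 0.17) and differed from control by 0.28 ± 0.15, a difference that was −0.17 under CPM scaling and −0.24 under quantile normalization.

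Nrp1 (chromosome 8, 128358604 to 128503363, plus strand), neuropilin 1, fell most with LPS. It had 6543, 5764 and 5320 normalized reads in control, 1113, 916 and 902 with LPS, and 2226, 1900 and 1964 with LPS and NCT503. No group overlapped with another, and the libraries with NCT503 lay between the other groups, nearer to LPS. The log2 change with LPS was −2.58 ± 0.15 (adjusted p = 1.29e-07, limma), and it ranked 443 among the fitted decreases of 19975 genes. With NCT503 the level was 1.06 ± 0.17 higher than with LPS and −1.53 ± 0.15 against control.

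Plxnb2 and Plxnd1 set the libraries with NCT503 apart from both other groups. Plxnb2 (chromosome 15, 89155549 to 89171120, minus strand), plexin B2, a receptor of Sema4c and Sema4d, had 18355, 23014 and 24336 normalized reads in control, 15100, 19938 and 18282 with LPS, and 4861, 5068 and 4470 with LPS and NCT503. Control and LPS overlapped, and the libraries with NCT503 lay below all 6 others. The LPS difference was −0.30 ± 0.17 (adjusted p = 0.196, limma), and it passed as lower under CPM scaling (−0.998) and under quantile normalization (−1.43). With NCT503 the mean was 3.70-fold below LPS (log2 −1.88 ± 0.17) and 4.56-fold below control (−2.18 ± 0.15).

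Plxnd1 (chromosome 6, 115954811 to 115995005, minus strand), plexin D1, best known as the endothelial receptor of the secreted ligand Sema3e, stood higher with NCT503. Its normalized reads were 9531, 11867 and 12286 in control, 11887, 16399 and 10959 with LPS, and 28228, 34206 and 28126 with LPS and NCT503. Control and LPS overlapped, and the libraries with NCT503 lay above all 6 others. The LPS difference of 0.21 ± 0.19 (adjusted p = 0.389, limma) turned to −0.49 under CPM scaling and −0.81 under quantile normalization, both past the threshold. With NCT503 the level was 1.22 ± 0.19 above LPS and 1.43 ± 0.16 above control on the log2 scale, the latter being 0.98 under CPM scaling and 0.64 under quantile normalization. The 7 endothelial markers, all measured and none at 0, summed to 131.8 to 141.8 CPM with NCT503, 66.17 to 81.83 with LPS and 33.99 to 115.0 in control, Kdr, which is also in the receptor list described further on, being 80.5 to 102 CPM of it with NCT503; their part in the Plxnd1 values was not tested.

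Plxnb1 (chromosome 9, 109095389 to 109119917, plus strand), plexin B1, had few reads. Its reads before scaling were 37, 12 and 11 in control, 4, 12 and 1 with LPS, and 0, 8 and 5 with LPS and NCT503. The LPS difference was −1.14 ± 0.70 on the log2 scale (adjusted p = 0.219, limma), and −1.90 (adjusted p = 0.038) without LPS 2.

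Between LPS with NCT503 and LPS alone, Sema4d, Plxnc1, Plxnd1 and Nrp1 were higher with NCT503 without overlap of libraries. Sema4a, Sema4c and Plxnb2 were lower without overlap, and Sema4b, Sema7a and Plxnb1 overlapped. Of all genes tested in that comparison 32.6% were called at an adjusted p under 0.05 (limma), 16.9% higher and 15.7% lower. A call is a different measure from a lack of overlap, and the share of all genes without overlap is not given here. Since Sema4c in this comparison was the reason for the choice of genes, nothing is read from how many of them did not overlap. Both comparisons use the same LPS libraries, so values of opposite sign in them are not independent.

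**Figure D3:**
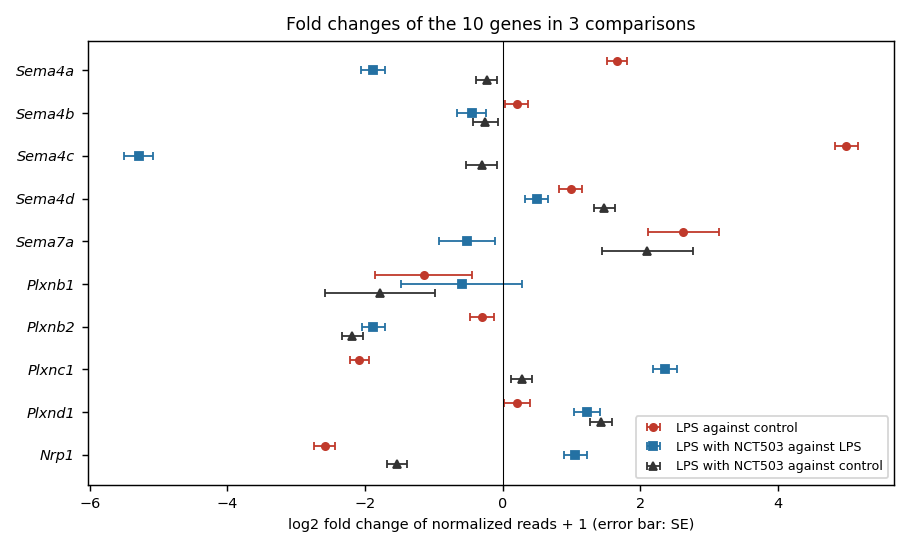
log2 fold change of normalized reads + 1 (x axis, error bar SE) of the 10 genes in 3 comparisons, 3 libraries a group. For Sema4c, Sema4a and Plxnc1 the difference from control in the libraries with NCT503 lies between −0.30 and 0.28 (between −0.75 and −0.17 under CPM scaling, not plotted), while Plxnb2 (−2.18), Nrp1 (−1.53), Plxnd1 (1.43) and Sema4d (1.48) lie away from 0.

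Divided by gene length, Plxnb2 was the most abundant of the 10 genes in control, at 3077 ± 441 normalized reads per kb (SD, n = 3), followed by Sema4d (2105 ± 267), Plxnd1 (1538 ± 203), Nrp1 (600 ± 63.3), Sema4a (431 ± 27.9), Plxnc1 (381 ± 31.9), Sema4b (153 ± 13.3), Sema7a (31.3 ± 27.1), Sema4c (21.9 ± 1.56) and Plxnb1 (1.48 ± 1.00). The neighbours Sema4a and Plxnc1, and Sema7a and Sema4c, overlapped in that order. With LPS, Sema4d led at 4162 ± 539 reads per kb, ahead of Plxnb2 (2497 ± 345) and Plxnd1 (1792 ± 399), which overlapped. Sema4c went from place 9 to place 5, at 708 ± 119 reads per kb, and Nrp1 (99.9 ± 12) and Plxnc1 (89.7 ± 5.14) fell to places below Sema7a. In that order Sema4b overlapped with Sema7a, Sema7a with Nrp1, and Nrp1 with Plxnc1. With LPS and NCT503, Sema4d (5848 ± 322) and Plxnd1 (4135 ± 477) led, and Plxnb2 followed at 674 ± 42.7 reads per kb. In these libraries Plxnc1 and Sema4a overlapped, as did Sema4b and Sema7a.

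**Figure D4:**
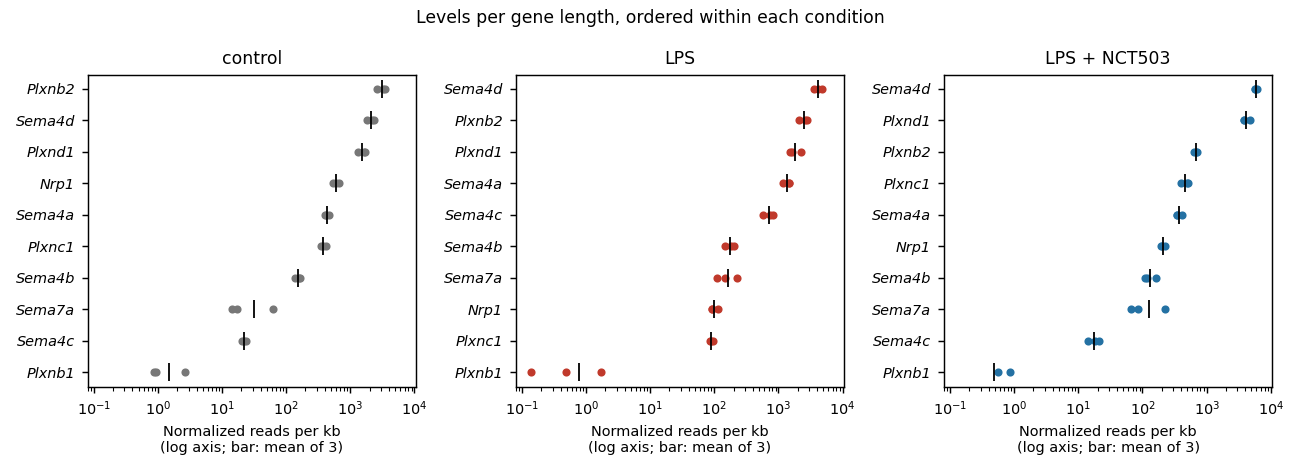
Normalized reads per kb of gene length (x axis, log) of the 10 genes, ordered by mean within each condition; points are libraries and the bar is the mean of 3 (a library with 0 reads of Plxnb1 has no point). Sema4c is at place 9 in control and in LPS with NCT503 and at place 5 in LPS, and Plxnb2 goes from 3077 in control to 674 with NCT503.

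Over the 9 libraries, genes among the 5 of 8515 compared (at least 10 CPM in the highest group, provisional names left out) whose log2 values ran most like those of Sema4c included Actb, cytoplasmic β-actin, with a Pearson r of 0.996, the kinases Prkcd (0.996) and Fgr (0.996), and the splicing helicase Dhx38 (0.995). The libraries of a treatment share that treatment, so these values rest mainly on 3 group levels. Actb had 39080 ± 4606 normalized reads in control, 198483 ± 25048 with LPS and 37142 ± 1935 with LPS and NCT503. Fgr had 654 ± 52.9, 3837 ± 120 and 650 ± 51.4 (SD, n = 3 each). These 4 genes had their highest level with LPS, and none spanned as wide a range as Sema4c.

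The other genes of the pathway were taken from 5 lists of 64 genes, which were not part of the choice by Sema4c and are tested in both comparisons. With LPS, 25 rose and 10 fell of 62 tested, where 20.5% of all genes were called higher and 21.4% lower, but 11 and 22 under CPM scaling and 15 and 15 under quantile normalization. With NCT503 against LPS, 20 rose and 14 fell of 62, where 16.9% of all genes were called higher and 15.7% lower, and 26 and 10 under CPM scaling. These shares are the background of each list count that follows. Sema5b and Timd2 were below the minimum in both comparisons.

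Of the other semaphorins, 3 rose and 1 fell with LPS among 14 tested, with a median log2 change of −0.41 (0 and 5 under CPM scaling). Sema6b, a transmembrane semaphorin and the most abundant of this list, fell from 931 ± 167 to 498 ± 65.9 normalized reads (log2 −0.89 ± 0.18, adjusted p = 0.00177, limma). The secreted Sema3g rose by 1.72 ± 0.44 (adjusted p = 0.00797), the transmembrane Sema6d by 1.06 ± 0.31 (0.0158) and Sema3b by 1.44 ± 0.47 (0.0279), and all 3 lost the call under CPM scaling. Sema6d also lost it without LPS 1 (adjusted p = 0.0556), LPS 3 (0.0635), control 2 (0.0715) or control 3 (0.0672), and Sema3b without LPS 2 (0.0648), LPS 3 (0.0805), control 2 (0.121) or control 3 (0.0818), and with DESeq2 (0.0962).

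When NCT503 was added, 6 of the 14 rose and 1 fell, with a median of 1.24 against 0.08 over all genes, and the counts were the same under TMM, quantile and CPM scaling; of all genes, 16.9% were called higher and 15.7% lower. The summed endothelial markers were also higher with NCT503 (131.8 to 141.8 CPM) than with LPS alone (66.17 to 81.83), and their part in these values was not tested. The secreted ligand Sema3c had 11.5, 5.45 and 15.7 normalized reads with LPS and 76.4, 77.0 and 70.4 with LPS and NCT503 (log2 2.75 ± 0.38, adjusted p = 0.000226, limma). Sema6c rose by 2.99 ± 0.43 (adjusted p = 0.000317), Sema3e, the ligand of plexin D1, by 3.56 ± 0.55 (0.000523) and Sema3g by 2.5 ± 0.39 (0.00059). All were low. Sema3e had 17.2 ± 7.14 normalized reads with NCT503, and its fitted value depends on the pseudocount (5.97 with a pseudocount of 0.1): 49 reads in all with NCT503 stood against 1 with LPS, a ratio of 40.4 (95% exact interval 6.92 to 1628, counting error only). Sema3g, the highest of these 4, had 167 ± 67.9. Sema3a (2.31 ± 0.51, adjusted p = 0.00471) and Sema6a (2.40 ± 0.42, adjusted p = 0.00123) rose as well, and Sema6b fell to 202 ± 71.0 (−1.34 ± 0.25, adjusted p = 0.00167).

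**Figure D5:**
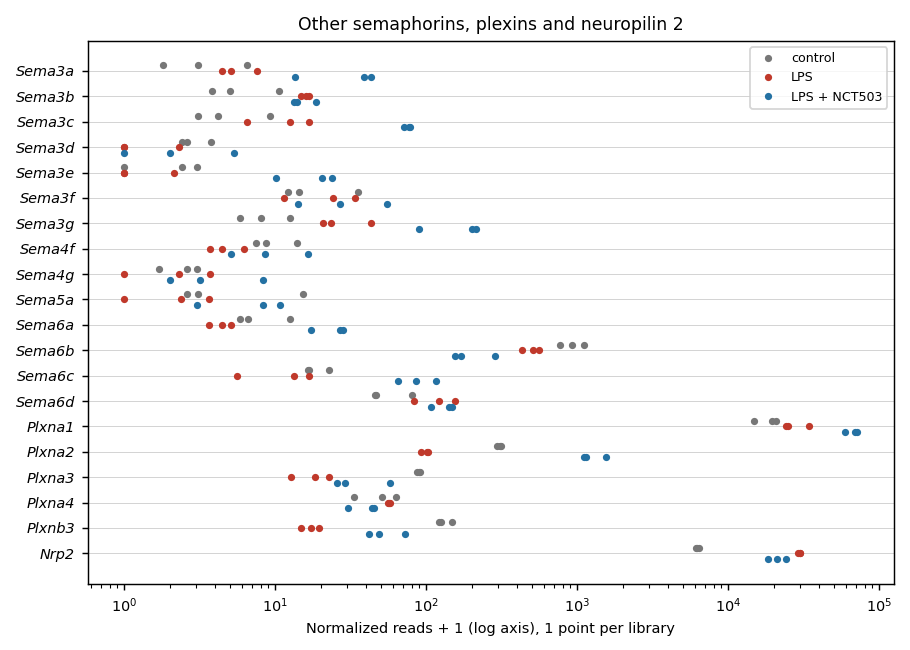
Normalized reads + 1 (x axis, log) of 14 other semaphorins, 5 other plexins and Nrp2, 1 point per library. Sema3c, Sema3e, Sema3g and Sema6c stand highest in the 3 libraries with NCT503, Sema6b lowest, and Plxna1 and Nrp2 are the most abundant of the receptors shown.

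Of the 5 other plexins and Nrp2, LPS raised 2 and lowered 3 (1 and 4 under quantile normalization). Neuropilin 2 (Nrp2) had 6125, 6170 and 6419 normalized reads in control and 29107, 29970 and 29827 with LPS (log2 2.25 ± 0.14, adjusted p = 1.77e-07, limma), against the fall of its relative Nrp1. Plxnb3 (log2 −2.93 ± 0.26), Plxna2 (−1.62 ± 0.17) and Plxna3 (−2.35 ± 0.30) fell. With NCT503, Plxna2 rose from 97.6 ± 5.90 to 1265 ± 253 normalized reads (log2 3.67 ± 0.20, adjusted p = 3.73e-07), and Plxna1, the A-type plexin that pairs with Trem2 and Tyrobp in myeloid cells, from 27727 ± 5629 to 66656 ± 6156 (1.28 ± 0.18, adjusted p = 0.000326). Plxnb3 rose by 1.62 ± 0.33 (0.00316), so that 3 of these 6 genes rose and 1, Nrp2, fell (4 and 0 under CPM scaling). Nrp2 fell (log2 −0.49 ± 0.16, adjusted p = 0.0409), a call lost under CPM (0.208) and quantile scaling (0.567) and without LPS 2 (0.0836), LPS 3 (0.131) or without replicate 2 (0.077) or 3 (0.128) of LPS with NCT503.

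Among receptors that semaphorins or plexins use beside each other, Met, the hepatocyte growth factor receptor that associates with B-type plexins, went from 253, 202 and 167 normalized reads in control to 2160, 1339 and 1897 with LPS (log2 3.11 ± 0.21, adjusted p = 4.44e-07, limma). It reached 16354, 9329 and 14714 with NCT503, a further rise of 2.89 ± 0.24 (adjusted p = 7.92e-06). Kdr, a vascular growth factor receptor, rose with LPS by 1.70 ± 0.17 (adjusted p = 1.06e-05), and Itgb1, the β1 integrin through which Sema7a signals, by 0.74 ± 0.17 (0.00351), although Itgb1 stood at 0.04 under CPM scaling and −0.21 under quantile normalization. Trem2 fell (log2 −0.83 ± 0.25, adjusted p = 0.0211), a call lost without LPS 1 (0.0784), LPS 3 (0.0954), control 2 (0.0739) or control 3 (0.101). In all, 3 of 9 rose and 1 fell with LPS, and with NCT503 1 rose and 1 fell (4 and 0 under CPM scaling), the latter being Tyrobp (−0.72 ± 0.22, adjusted p = 0.0267). The fall of Tyrobp did not pass without LPS 2 (0.103), LPS 3 (0.0877) or without replicate 1 (0.1) or 3 (0.104) of LPS with NCT503, nor under CPM (0.0629) or quantile scaling (0.206). With NCT503, Kdr (0.47 ± 0.17, adjusted p = 0.0543) and Mst1r (1.22 ± 0.50, adjusted p = 0.0846) did not pass. Kdr passed as higher under TMM (0.0464), quantile (0.0132) and CPM (0.00667) scaling, with edgeR (0.0255) and DESeq2 (0.0355), with the replicate block (0.0127) and without replicate 2 of LPS with NCT503 (0.0174). Mst1r passed under CPM scaling (0.0451), with the block (0.0358) and without replicate 1 of LPS with NCT503 (0.0467).

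Of 27 genes that carry plexin signals to the cytoskeleton, 13 rose and 4 fell with LPS (against 20.5% and 21.4% of all genes), with a median of 0.37, but 5 and 11 under CPM scaling and 6 and 6 under quantile normalization. Rnd1, a small GTPase that binds plexin cytoplasmic domains, rose from 20.9 ± 6.59 to 603 ± 151 normalized reads (log2 4.82 ± 0.28, adjusted p = 1.27e-07, limma). Dpysl2, the collapsin response mediator CRMP2, rose by 1.57 ± 0.14 and the GTPase Rap1b by 1.34 ± 0.14 (0.37 under quantile normalization), and the kinase Pak1 fell (−1.498 ± 0.176). With NCT503, 10 rose and 9 fell (against 16.9% and 15.7% of all genes), with a median of 0.15 against 0.08 over all genes. Dpysl2 went from 1964, 1890 and 2086 normalized reads with LPS to 172, 146 and 139 (log2 −3.70 ± 0.17, adjusted p = 2.5e-07), below its 667 ± 39.3 in control. Sh3bp1, a GTPase-activating protein for Rac, fell (log2 −2.07 ± 0.18, adjusted p = 1.16e-05), while Mical1, an actin oxidase, rose by 1.84 ± 0.18 (2.02e-05) and the kinase Fyn by 1.56 ± 0.19 (9.13e-05).

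Proteases that shed or process semaphorins were higher with LPS in 4 of 6 cases and lower in 1, with a median of 1.12, and in 3 and 1 under CPM or quantile scaling. Mmp14, a membrane-type metalloproteinase able to shed Sema4d, rose from 12747 ± 1343 to 104875 ± 12825 normalized reads (log2 3.04 ± 0.16, adjusted p = 5.96e-08, limma). Furin, which cleaves semaphorin precursors, rose by 2.30 ± 0.21 and the related convertase Pcsk7 by 1.47 ± 0.14, and the sheddase Adam10 fell (−0.79 ± 0.19). With NCT503 against LPS 2 fell and 0 rose: Mmp14 (log2 −1.31 ± 0.17, adjusted p = 0.00014) and Pcsk7 (−1.52 ± 0.18, 7.78e-05). Adam17 (0.44 ± 0.23, adjusted p = 0.174) and Pcsk5 (0.88 ± 0.58, adjusted p = 0.274) did not pass; Adam17 passed as higher under CPM and quantile scaling, with the replicate block, without LPS 1 and without replicate 2 of LPS with NCT503.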

How the data were processed

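Reads were aligned with TopHat2 to mm10, per the submitters' processing notes; no source used here names the counter, the annotation, the strand setting or the software behind the fold changes. Per the file headers, the authors deposited signal per library with group means of that signal, a log2 fold change, and a p-value with its adjusted form, in 2 tables of 23001 and 22620 genes. In all library columns 100% of signal values became whole reads after multiplication by 1 factor per library (tolerance 0.001), so each was treated as reads divided by a size factor. LPS reads were equal in both tables, and the 9 libraries were joined over 21434 genes with median-of-ratios size factors.

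In each comparison limma 3.58.1 under R 4.3.3 (moderation with a mean trend, robust) was run on log2(normalized reads + 1) of genes whose mean reached 1 normalized read in one group, with p-values adjusted by Benjamini-Hochberg over all genes tested, and called at an adjusted p under 0.05. This fold change understates that of low genes. The script was tested on simulated data. The members, lists and tests were chosen with earlier results of these data known. Named genes are the 10 members, up to 4 of each list with the smallest p per comparison (LPS against control, and LPS with NCT503 against LPS), and the 5 genes most like Sema4c, of which 1 is not reported here; D430040D24Rik, Sema3a, Sema6a, Sema5b, Timd2 and the marker genes named singly were picked after their values were seen. Alternatives were a pseudocount of 0.1, no filter, TMM, quantile and CPM scaling, edgeR 4.0.16 on recovered reads, DESeq2 1.42.0, all 9 libraries in 1 fit, a replicate block, and leaving out each library. Protein sequences were not used here. Replicate numbers were not taken as pairs.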

Additional observations from a re-analysis of the deposited data

How the results depend on the processing

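Of the 10 genes, Sema4c, Sema4a, Nrp1 and Plxnc1 kept their direction and call with LPS over all 15 alternatives, with ranges of 4.29 to 5.13, 0.90 to 1.77, −3.29 to −2.51 and −2.78 to −2.02 on the log2 scale. Scaling decided the direction of others of the 10. Under quantile normalization the LPS change was −0.0939 for Sema4b, −0.14 for Sema4d and −0.81 for Plxnd1, and under CPM scaling −0.50 for Sema4b and −0.49 for Plxnd1. Itgb1, a gene of the receptor list, also turned, to −0.21 under quantile normalization. The cause of these reversals was not tested. The number of the 10 genes called with LPS was 5 to 9 over the alternatives and 6 to 7 when a library was left out. The number of all genes called was 6432 to 10628 with LPS and 4334 to 8186 with NCT503, and for the 64 list genes 26 to 40 and 28 to 43. A pseudocount of 0.1, or no filter, changed no call of the 10 genes with LPS. On the recovered reads edgeR called 7769 and 6087 genes in the respective comparisons and DESeq2 7793 and 6199.

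With the replicate number as a block, 9714 genes were called with LPS and 8186 with NCT503, and 5 of the 10 genes with LPS. Sema7a with LPS lost its call (adjusted p = 0.127, limma). At the same fold change, the adjusted p of Sema4c with LPS was 3.73e-182 with the block against 2.01e-09 without it (limma). Such small values from few libraries are not taken at face value. Nothing is read from the larger counts of this fit or from calls gained with it. Libraries of the same number did not all deviate together, nor did each correlate best with its own number (correlations of 0.11, 0.02 and 0.01 between control and LPS, and 0.20, 0.18 and −0.04 between LPS and LPS with NCT503). Replicate 1 between control and LPS, and replicates 1 and 2 between LPS and LPS with NCT503, did correlate best with their own number. Whether libraries of the same number share a culture or a batch is not given in the labels and was not tested. Counting error weighs most on Plxnb1, with at most 37 reads in a library, and on the class 3 semaphorins.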
